A study of Mus musculus with 6 samples.

Results

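The DNA replication genes described here are 43 mouse genes that copy the genome in S phase, and they were read on 6 arrays of sorted calvarial suture cells. They were taken by gene name from their known roles: 5 genes of origin licensing, 6 subunits of the MCM helicase, 6 genes of helicase activation, 9 of the replicative DNA polymerases and primase, 6 of the sliding clamp and its loader, 2 of Okazaki fragment maturation, 3 of single-strand DNA binding, 4 of nucleotide supply and the 2 E cyclins. All 43 were measured, out of 19938 genes tested. A gene was read by array features that name it alone, and the brightest was used where it had several. Values are log2 array units as the authors deposited them, so a log2 change is Axin2+/GFP+ minus Axin2-/GFP-.

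The study compared cells of the suture mesenchyme, the tissue between the flat bones of the skull, with and without expression of Axin2, a negative regulator and target of Wnt signalling. The 3 Axin2+/GFP+ samples were sorted as GFP positive and the 3 Axin2-/GFP- samples as GFP negative. Both came from mice at postnatal day 28 on a mixed background of C57BL/6J, CD-1 and B6CBAF2, all carrying Axin2rtTA and TRE-H2BGFP and all given doxycycline from day 25 on. Each sample pooled 6 to 8 mice, and within a group the labels number the samples as biological replicates.

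Several features limit the 2 sorts as models of 2 cell types. Axin2rtTA places the doxycycline-dependent activator under control of the Axin2 locus, and the reporter is a histone joined to GFP, so the sort reads GFP that had accumulated over the doxycycline days and not Axin2 protein. Both sorts came from the same kind of transgenic mouse, and no mouse without doxycycline or without the transgenes was among the samples. Collagenase freed the cells and GFP was the only sorting marker named, with no antibody against blood cells. These are bulk samples, in which fewer cells of a type and less RNA per cell cannot be told apart.

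A chromosome is copied from many origins, where the origin recognition complex, Cdc6 and Cdt1 load the ring-shaped MCM helicase before S phase begins. Cyclin E kinase and the Cdc45 and GINS proteins then turn the loaded rings into moving helicases, RPA coats the opened strands, primase and polymerase alpha start each new strand, and polymerases delta and epsilon extend it while held on the DNA by the PCNA ring. In tissues the RNAs of these genes are highest in dividing cells and low in resting ones, and many of their promoters carry sites of the E2F transcription factors and CCAAT boxes bound by NF-Y.

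The sequences before the start sites of several members are shown because promoter words were not used to choose the members. A window of 300 bases, 250 before and 50 after the start, was found in RefSeq for 34 of the 43 members (build GRCm38.p6). It was searched on both strands for 4 E2F words, TTTGGCGC, TTTCCCGC, TTTCGCGC and TTTGCCGC, and for CCAAT, which shares no overlap with them beyond single bases at their ends. Every member whose E2F match lay wholly before the start is printed 5′ to 3′ on the gene's own strand, with the matched bases in capitals. In a stretch written GCGGGAAA, GCGCGAAA or GCGCCAAA the word lies on the opposite strand.
Mcm6 (chr1:128359730-128359830, minus strand): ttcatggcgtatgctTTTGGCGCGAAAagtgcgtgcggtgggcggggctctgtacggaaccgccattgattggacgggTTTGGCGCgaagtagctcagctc
Mcm7 (chr5:138172026-138172063, minus strand): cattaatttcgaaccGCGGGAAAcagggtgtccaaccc
Pola1 (chrX:93632271-93632308, minus strand): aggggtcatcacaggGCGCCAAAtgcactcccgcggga
Rfc3 (chr5:151651209-151651233, minus strand): agtgacgtcgcacgcTTTCGCGCtc
Mcm5 (chr8:75109341-75109382, plus strand): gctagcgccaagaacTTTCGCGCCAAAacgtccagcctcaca
Orc1 (chr4:108579412-108579449, plus strand): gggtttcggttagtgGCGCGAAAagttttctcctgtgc
Cdc6 (chr11:98907998-98908035, plus strand): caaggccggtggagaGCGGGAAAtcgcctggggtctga
Gins3 (chr8:95633503-95633540, plus strand): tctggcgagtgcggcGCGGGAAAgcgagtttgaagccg

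The first 4 of these stretches belong to genes that were lower in Axin2+/GFP+ cells, as given below, and the last 4 to genes that did not pass the test. Mcm6 held 3 matches, the first pair of which overlap, and the 2 matches of Mcm5 overlap as well. Pcna, the member with the largest difference, held no E2F word in its window, and its stretch is shown for the CCAAT box on the opposite strand, printed as ATTGG.
Pcna (chr2:132253248-132253282, minus strand): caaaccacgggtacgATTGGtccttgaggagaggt

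An E2F word was found in 14 of the 34 members with a window (41.2%), against 704 of 27025 genes with such a window (2.6%). CCAAT was found in 21 of the 34 (61.8%), against 41.1% of all genes. Among the members with a window, the E2F words stood in 5 of the 10 that were lower in Axin2+/GFP+ cells and in 9 of the 24 that did not pass, and CCAAT in 9 of the 10 and 12 of the 24. A match is a description of the letters and not a bound site, and whether these shares differ between the called and the other members was not tested.

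Across the arrays, the samples of a group correlated at r = 0.91 to 0.92 in Axin2+/GFP+ cells and at 0.97 in Axin2-/GFP- cells. The scales of the 2 groups were not alike: 1192 olfactory and vomeronasal receptor genes, which these cells are not known to use, had medians of 1.75 to 1.83 in Axin2+/GFP+ samples and 1.43 to 1.48 in Axin2-/GFP- samples, while the upper quartile of all genes was 3.63 to 3.72 against 3.94 to 3.98. The median log2 change over all genes was 0.14. Axin2 itself read 2.89, 2.54 and 3.07 in Axin2+/GFP+ samples and 2.18, 2.27 and 2.38 in Axin2-/GFP- samples, a log2 change of 0.55 (SE 0.19, limma adjusted p = 0.0802), with no overlap between the groups and all 6 values under the 95th percentile of the receptor genes in their sample.

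Of the 43 replication genes, 15 were lower in Axin2+/GFP+ cells and none was higher at a limma adjusted p under 0.05. The 15 stand beside 11.4% of all genes called lower and 4.64% called higher. The called members were 1.70 to 3.02 times lower, with log2 changes of -0.76 to -1.59, and in all 15 the 3 Axin2+/GFP+ values lay below the 3 Axin2-/GFP- values. The DNA polymerases, the helicase, the clamp with its loader and ribonucleotide reductase supplied 14 of the 15, and the GINS complex the other one. The median log2 change of the 43 was -0.60, and 41 of the 43 were below 0.

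Other thresholds gave counts in the same direction. At an unadjusted limma p under 0.05, 25 members were lower and 0 higher, beside 17.6% and 16.3% of all genes. By the methods' t-test 18 were lower and 0 higher at the same unadjusted threshold, beside 13.8% and 14.8%. After adjustment of that test over all genes, 2 members, Mcm6 and Pcna, stayed lower and 0 were higher. The 2 are 4.65% of the members, beside 2.6% of all genes called lower and 1.06% called higher. The 3 values of each group did not overlap for 20 members, all lower in Axin2+/GFP+ cells, beside 17.8% of all genes with such a gap downwards and 23.1% with one upwards. For a single gene the exact two-sided permutation test of 3 against 3 samples cannot go below p = 0.1, which each of these 20 reached.

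**Figure D1:**
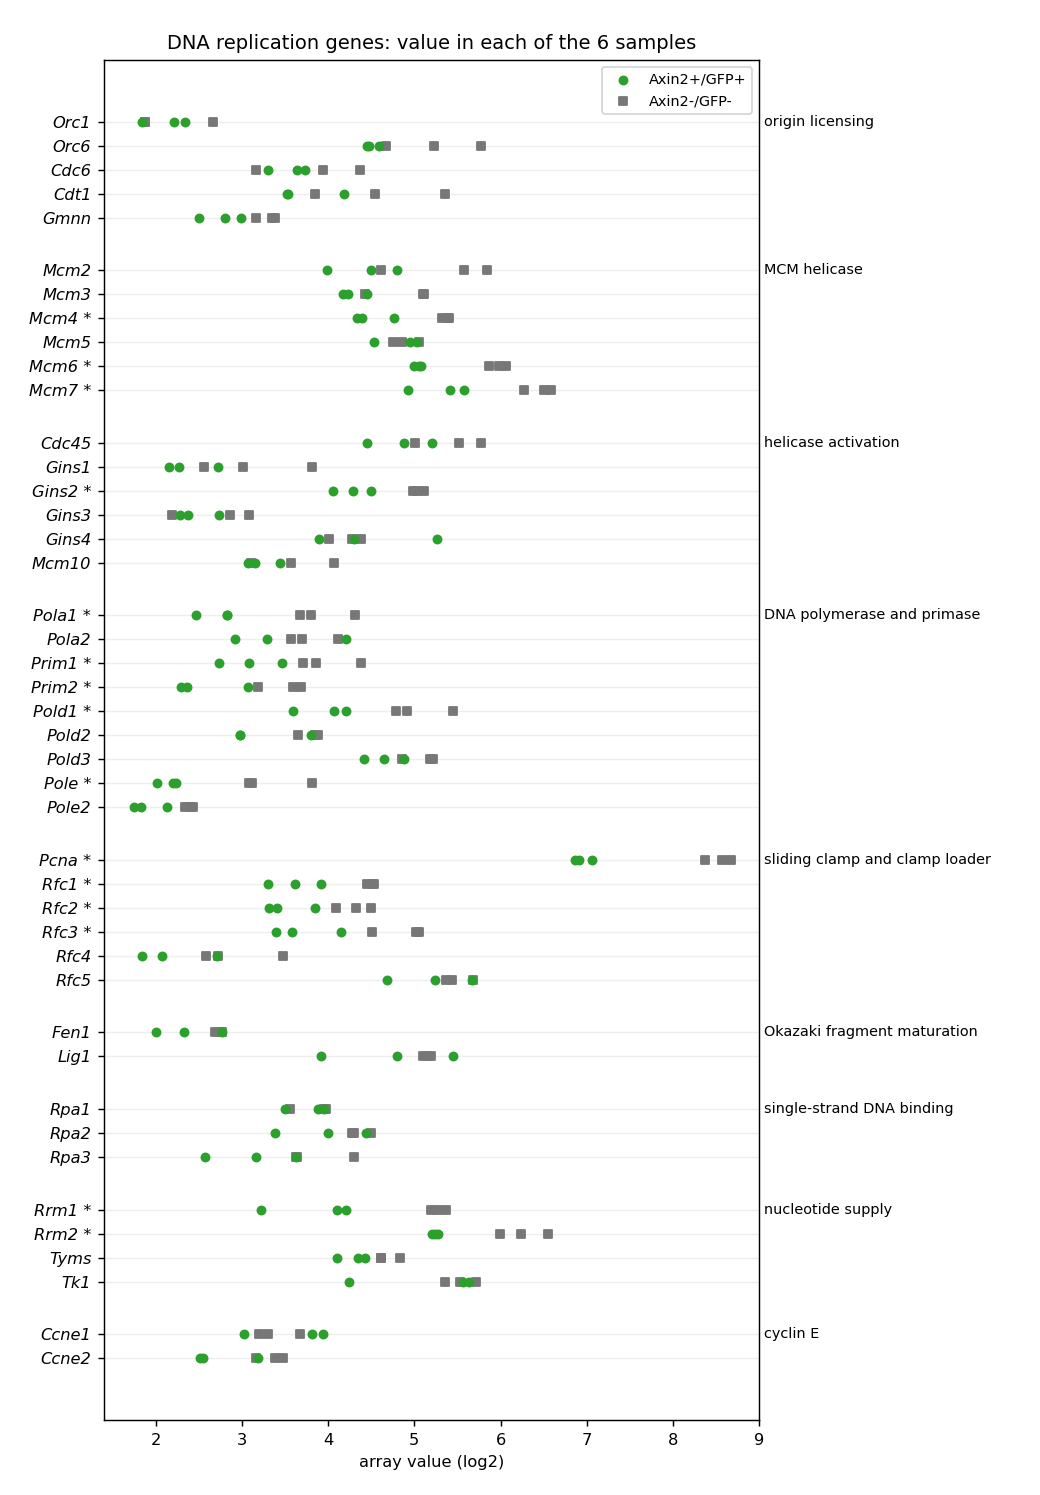
Log2 array value (horizontal axis) of each of the 43 DNA replication genes (rows, grouped by role) in the 3 Axin2+/GFP+ samples (green circles) and the 3 Axin2-/GFP- samples (grey squares), with an asterisk for the 15 genes that passed. For Pcna the circles lie at 6.87 to 7.06 and the squares at 8.37 to 8.67, while for Mcm5 the values of the groups are mixed.

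Origin licensing held no called member, with a median log2 change of -0.53 over its 5 genes. Orc6, a subunit of the origin recognition complex, had 4.45, 4.59 and 4.47 in Axin2+/GFP+ samples and 5.23, 4.68 and 5.77 in Axin2-/GFP- samples, a log2 change of -0.72 (SE 0.26, limma adjusted p = 0.0965). Gmnn encodes geminin, which holds Cdt1 inactive after origins have fired, and it had 2.51, 2.81 and 2.99 against 3.38, 3.16 and 3.35 (log2 change -0.53, SE 0.19, limma adjusted p = 0.0852). Neither gene's groups overlapped, yet neither passed.

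The 3 remaining licensing genes overlapped between the groups. The MCM loader Cdt1 had 3.54, 4.18 and 3.52 in Axin2+/GFP+ samples and 5.36, 3.85 and 4.55 in Axin2-/GFP- samples (log2 change -0.84, SE 0.36, limma adjusted p = 0.143). Cdc6, the other loading factor, had a log2 change of -0.27 (SE 0.30), which came to 0.01 without Axin2-/GFP- replicate 3. Orc1, the largest subunit of the origin complex, had -0.01 (SE 0.26), with a 95% interval of -0.59 to 0.57, and was among the dimmest members. Leaving out single samples moved Orc1 between -0.14 and 0.25, so its sign is not settled.

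The MCM helicase is a ring of 6 different subunits, and 3 of them were lower in Axin2+/GFP+ cells. Mcm6 had 5.05, 5.08 and 4.999 in Axin2+/GFP+ samples and 6.06, 5.87 and 5.99 in Axin2-/GFP- samples. That is a log2 change of -0.93 (SE 0.16, limma adjusted p = 0.00606), or 1.91-fold lower, and both groups were tight, with SDs of 0.04 and 0.10 (n = 3 each). Mcm7 had 5.58, 4.93 and 5.41 against 6.27, 6.50 and 6.58, a log2 change of -1.14 (SE 0.21, limma adjusted p = 0.00874), or 2.21-fold lower. Mcm4, which together with Mcm6 and Mcm7 forms the catalytic core of the ring, had 4.34, 4.39 and 4.76 against 5.40, 5.39 and 5.32 (log2 change -0.87, SE 0.18, limma adjusted p = 0.0136).

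The other 3 subunits did not pass, and they were not alike. Mcm2 had 3.99, 4.50 and 4.80 in Axin2+/GFP+ samples and 5.58, 4.61 and 5.84 in Axin2-/GFP- samples, a log2 change of -0.92 (SE 0.34, limma adjusted p = 0.0977). Its change was about as large as that of Mcm6, but Axin2-/GFP- replicate 2 lay inside the Axin2+/GFP+ range, and the same replicate overlapped for Mcm3, at 4.43 beside 5.10 and 5.11 (log2 change -0.60, SE 0.22, limma adjusted p = 0.101). Without that replicate both passed, at limma adjusted p of 0.0321 for Mcm2 and 0.0479 for Mcm3. Mcm5 had 5.03, 4.53 and 4.95 against 5.06, 4.85 and 4.75, fully overlapping, with a log2 change of -0.05 and a 95% interval of -0.49 to 0.39. Its sign turned with the scaling, to 0.49 after quantile normalization and 0.46 after cyclic loess.

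Helicase activation gave 1 called gene of 6. Gins2, a subunit of the GINS complex that joins Cdc45 and the MCM ring in the active helicase, had 4.50, 4.29 and 4.06 in Axin2+/GFP+ samples and 5.03, 5.12 and 4.99 in Axin2-/GFP- samples (log2 change -0.76, SE 0.18, limma adjusted p = 0.0224). This call was lost in 7 of 15 alternatives, 4 of them fits that left out 1 sample, and the change was -0.25 under quantile normalization. The other GINS subunits did not follow it past the threshold: Gins1 had a log2 change of -0.75 (SE 0.31, limma adjusted p = 0.132) and Gins3 of -0.25 (SE 0.26). Gins4 had the highest value of all 43 members at 0.26 (SE 0.32), with 4.29, 3.90 and 5.26 against 4.38, 4.27 and 4.01, and this rests on Axin2+/GFP+ replicate 3, since without it the change was -0.13. Cdc45 had 4.45, 4.88 and 5.21 against 5.52, 5.01 and 5.78, overlapping, with a log2 change of -0.59 (SE 0.26, limma adjusted p = 0.152). For Mcm10, a scaffold that helps the helicase start, the change was -0.36 (SE 0.25).

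DNA polymerases and primase were the role with the most called genes, 5 of 9, and these covered each of the 3 enzymes that copy nuclear DNA. Pola1, the catalytic subunit of polymerase alpha, had 2.83, 2.46 and 2.82 in Axin2+/GFP+ samples and 3.68, 3.80 and 4.31 in Axin2-/GFP- samples. Its log2 change was -1.22 (SE 0.22, limma adjusted p = 0.00755). The primase subunits that travel with it were lower as well. Prim1 had 2.73, 3.47 and 3.08 against 3.71, 4.38 and 3.86 (log2 change -0.89, SE 0.25, limma adjusted p = 0.0452), and Prim2 had 3.08, 2.30 and 2.37 against 3.69, 3.19 and 3.60 (log2 change -0.91, SE 0.25, limma adjusted p = 0.0413). Both calls were near the threshold, and each was lost in 5 of the 6 fits that left out 1 sample. All Axin2+/GFP+ values of Pola1 and Prim2 lay below the 95th percentile of the receptor genes in their sample, which was 3.05 to 3.30 there, so these changes set a level near background against one above it.

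The catalytic subunits of the extending polymerases were also lower. Pold1 of polymerase delta, which copies mainly the lagging strand, had 3.59, 4.20 and 4.07 in Axin2+/GFP+ samples and 4.79, 5.44 and 4.91 in Axin2-/GFP- samples (log2 change -1.09, SE 0.24, limma adjusted p = 0.0178). Pole of polymerase epsilon, which copies mainly the leading strand, had 2.02, 2.20 and 2.24 against 3.11, 3.09 and 3.82 (log2 change -1.19, SE 0.23, limma adjusted p = 0.0103). The same limit holds for Pole, whose Axin2+/GFP+ values lay below that percentile as well. Accessory subunits did not pass: Pola2 had -0.33 (SE 0.32), Pold2 had -0.54 (SE 0.25), Pold3 had -0.44 (SE 0.19) and Pole2 had -0.49 (SE 0.17, limma adjusted p = 0.0896). Pole2, a dim gene whose groups did not overlap, passed under 4 of the alternative scalings, and Pold3 turned to 0.10 under quantile normalization and 0.07 under cyclic loess.

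The largest difference of all members was in Pcna, the ring that tethers polymerases to DNA. It had 6.87, 6.91 and 7.06 in Axin2+/GFP+ samples and 8.67, 8.37 and 8.57 in Axin2-/GFP- samples, a gap far wider than the spread inside either group (SDs of 0.10 and 0.15, n = 3 each). Pcna was 3.02-fold lower in Axin2+/GFP+ cells, with a log2 change of -1.59 (SE 0.17, 95% interval -1.98 to -1.21, limma adjusted p = 0.000733). A second feature of Pcna gave the same log2 change, -1.59 (SE 0.18). The mouse RefSeq table also lists 2 Pcna pseudogenes, Pcna-ps1 and Pcna-ps2, and which share of either signal they give is uncertain. Pcna was also the only called member that passed in each of the 15 alternatives, with log2 changes between -0.93 and -1.91.

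Replication factor C, the 5-subunit complex that opens the PCNA ring and places it on primed DNA, gave 3 called genes. Rfc3 had 4.15, 3.59 and 3.39 in Axin2+/GFP+ samples and 5.06, 4.51 and 5.02 in Axin2-/GFP- samples (log2 change -1.15, SE 0.25, limma adjusted p = 0.0164). Rfc1, its large subunit, had 3.31, 3.62 and 3.92 against 4.51, 4.53 and 4.45 (log2 change -0.88, SE 0.19, limma adjusted p = 0.0183), the Axin2-/GFP- samples lying within a narrow band. Rfc2 had 3.31, 3.40 and 3.85 against 4.32, 4.50 and 4.09 (log2 change -0.78, SE 0.21, limma adjusted p = 0.0355), and it was the call most often lost, in 9 of 15 alternatives. Rfc4 had -0.72 (SE 0.30) and Rfc5 -0.30 (SE 0.26), and both overlapped between the groups. The sign of Rfc5 turned to 0.27 after quantile normalization and 0.26 after cyclic loess.

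No gene of Okazaki fragment maturation or single-strand binding passed. Fen1, the nuclease that trims the flaps between fragments, had 2.01, 2.76 and 2.32 in Axin2+/GFP+ samples and 2.75, 2.68 and 2.76 in Axin2-/GFP- samples (log2 change -0.37, SE 0.21). Lig1, the ligase that seals them, had 4.80, 3.91 and 5.44 against 5.10, 5.16 and 5.19 (log2 change -0.43, SE 0.34, limma adjusted p = 0.381). In both genes the spread lay in the Axin2+/GFP+ samples while the Axin2-/GFP- values were nearly equal, and Lig1 was at 0.09 after both quantile normalization and cyclic loess.

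RPA is the heterotrimer that protects single strands, and its 3 subunits read differently. The large subunit Rpa1 had a log2 change of -0.05 (SE 0.20, 95% interval -0.51 to 0.41), with a sign that turned to 0.23 after quantile normalization and 0.18 after cyclic loess. Rpa2 had 3.997, 4.44 and 3.38 in Axin2+/GFP+ samples and 4.30, 4.28 and 4.50 in Axin2-/GFP- samples (log2 change -0.42, SE 0.26). Rpa3, the smallest subunit, had 3.63, 2.58 and 3.16 against 4.30, 3.63 and 3.64 (log2 change -0.73, SE 0.30, limma adjusted p = 0.123), where the highest Axin2+/GFP+ value and the lowest Axin2-/GFP- value differ only beyond the second decimal. A second feature of Rpa3 gave -1.001 (SE 0.43), which did not pass either.

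Nucleotide supply gave 2 called genes of 4. Both subunits of ribonucleotide reductase, the enzyme that makes deoxyribonucleotides, were lower in Axin2+/GFP+ cells. Rrm1, its large subunit, had 3.22, 4.21 and 4.10 in Axin2+/GFP+ samples and 5.37, 5.28 and 5.19 in Axin2-/GFP- samples, which is 2.71-fold lower (log2 change -1.44, SE 0.26, limma adjusted p = 0.00859). Rrm2, the subunit whose protein is limited to S phase, had 5.24, 5.28 and 5.20 against 6.24, 5.99 and 6.55 (log2 change -1.02, SE 0.19, limma adjusted p = 0.00892), or 2.03-fold lower.

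Neither of the enzymes that make thymidine nucleotides passed. Tyms, thymidylate synthase, had 4.43, 4.34 and 4.10 in Axin2+/GFP+ samples and 4.84, 4.61 and 4.61 in Axin2-/GFP- samples, with no overlap but a log2 change of only -0.39 (SE 0.17, limma adjusted p = 0.151). Tk1, the thymidine kinase of dividing cells, had 5.64, 4.24 and 5.56 against 5.36, 5.71 and 5.52 (log2 change -0.38, SE 0.35). The Tk1 value rests on Axin2+/GFP+ replicate 2, without which it was 0.07. Quantile normalization and cyclic loess turned the sign of both genes, with 0.10 and 0.05 for Tyms and 0.17 and 0.18 for Tk1.

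The E cyclins, which start S phase with Cdk2, did not pass. Ccne1 had 3.93, 3.02 and 3.81 in Axin2+/GFP+ samples and 3.30, 3.19 and 3.68 in Axin2-/GFP- samples, a log2 change of 0.20 (SE 0.27), and -0.12 after centring on the receptor genes. Ccne2 had 2.51, 2.55 and 3.19 against 3.48, 3.39 and 3.17, a log2 change of -0.60 (SE 0.22, limma adjusted p = 0.101). On the deposited scale only Ccne1 and Gins4 of the 43 had a change above 0, and after centring on the receptor genes neither did.

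**Figure D2:**
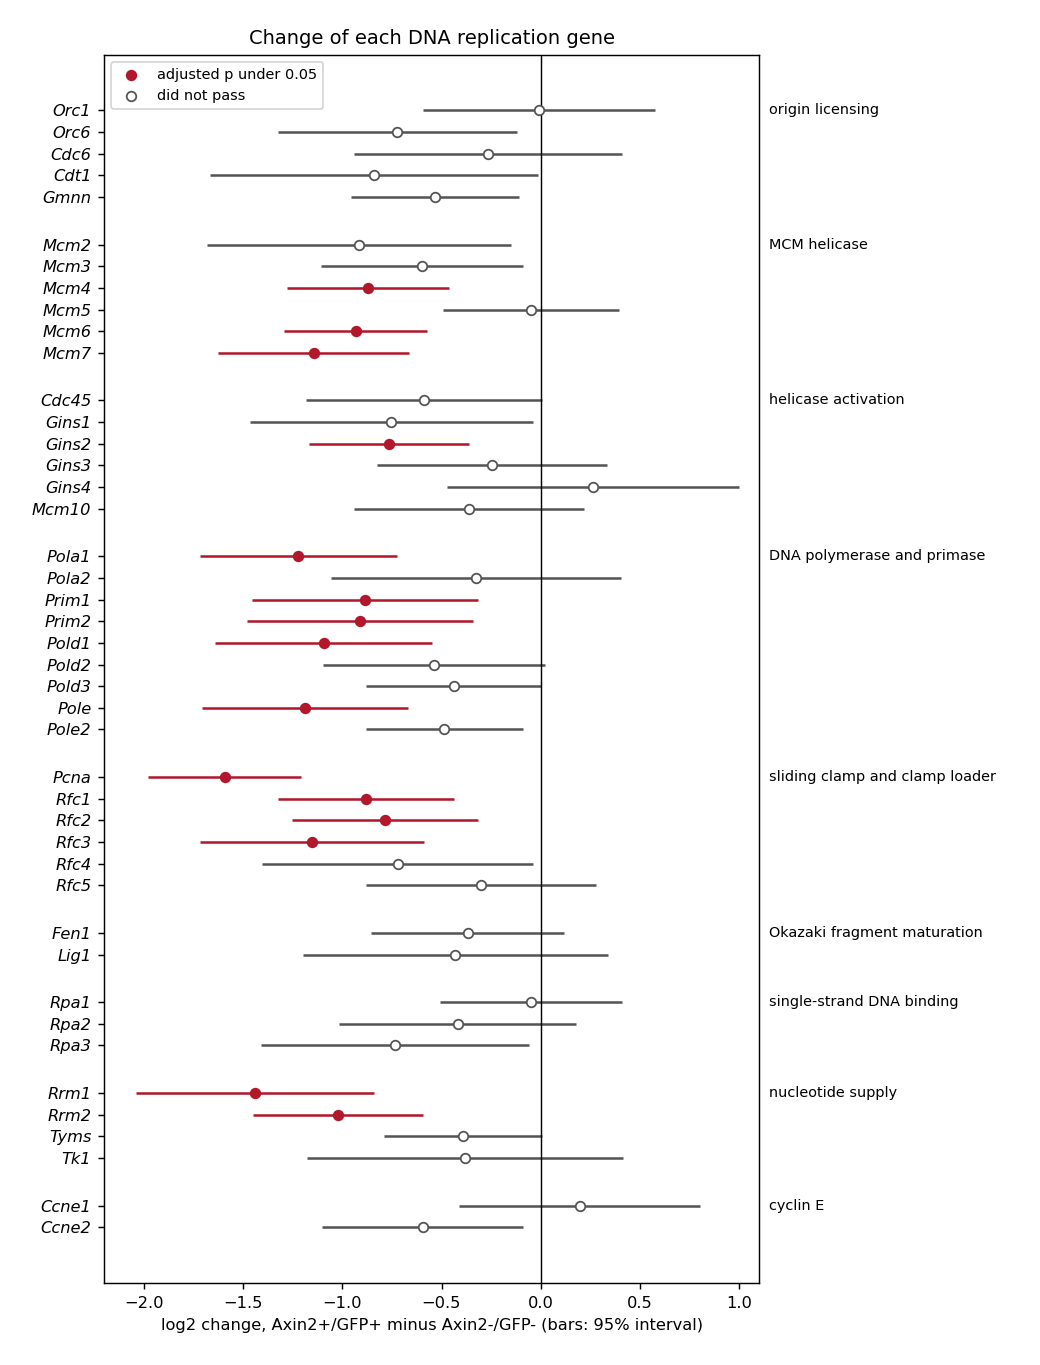
Log2 change of each of the 43 genes, Axin2+/GFP+ minus Axin2-/GFP- (horizontal axis; point, limma estimate; bar, 95% interval), in rows grouped by role, with filled red points for the 15 genes at an adjusted p under 0.05. Changes run from -1.59 for Pcna to 0.26 for Gins4, and the filled points lie in the rows of the helicase and its activation, polymerases, clamp and nucleotide supply.

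The 28 genes that did not pass had log2 changes of -0.92 to 0.26. For 10 of them the 95% interval lay wholly below 0, and for 14 it still held a log2 change of -1. For these 14 a log2 change of -1 could be neither shown nor excluded with 3 arrays a group. The changes of the called genes began nearer 0, at -0.76 for Gins2, so intervals without -1 can still hold a change of the called size. The spread among replicates was wider in the Axin2+/GFP+ samples for 26 of the 43 members, with a median SD of 0.30 against 0.24 in the Axin2-/GFP- samples. Over all genes the median SDs were 0.26 and 0.19.

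By sample, the median value of the 43 members was 3.63, 3.90 and 3.88 in Axin2+/GFP+ cells and 4.38, 4.38 and 4.45 in Axin2-/GFP- cells, so these medians did not overlap. Axin2-/GFP- replicate 2 was the lowest of its group for 23 of the 43 members, and replicates 1 and 3 for 10 each. The fall of the count when 1 sample was left out was largest for Axin2-/GFP- samples: 8 members passed without replicate 1, 11 without replicate 2 and 9 without replicate 3, against 13 or 14 when an Axin2+/GFP+ sample was left out. The share of all genes called lower fell likewise, to 6.9%, 7.3% and 7.04% without Axin2-/GFP- replicate 1, 2 or 3. It was 10.1%, 9.79% and 10.4% without Axin2+/GFP+ replicate 1, 2 or 3, and 11.4% with all 6 samples. Pcna, Mcm6, Mcm7, Pola1, Pole, Rrm1 and Rrm2 passed in each of these 6 fits. Mcm4 was lost without Axin2-/GFP- replicate 1 or 2, Rfc3 without replicate 1 or 3, Pold1 without replicate 2 and Rfc1 without any 1 of the 3.

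How many genes were called lower depended on how bright they were, and the members were set beside genes of the same brightness for that reason. Below a mean log2 value of 3, 1 of 7 members was lower (Pole), beside 1.51% of all genes there. From 3 to under 5 it was 10 of 29 members, beside 20.6%, and from 5 upwards 4 of 7 (Mcm6, Mcm7, Pcna and Rrm2), beside 36.4%. The median log2 change in these 3 ranges was -0.49, -0.60 and -0.93 for the members, against 0.25, -0.19 and -0.57 for all genes. The members lay below the median of all genes in 7, 25 and 5 cases of these ranges. These shares were not tested against each other.

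**Figure D3:**
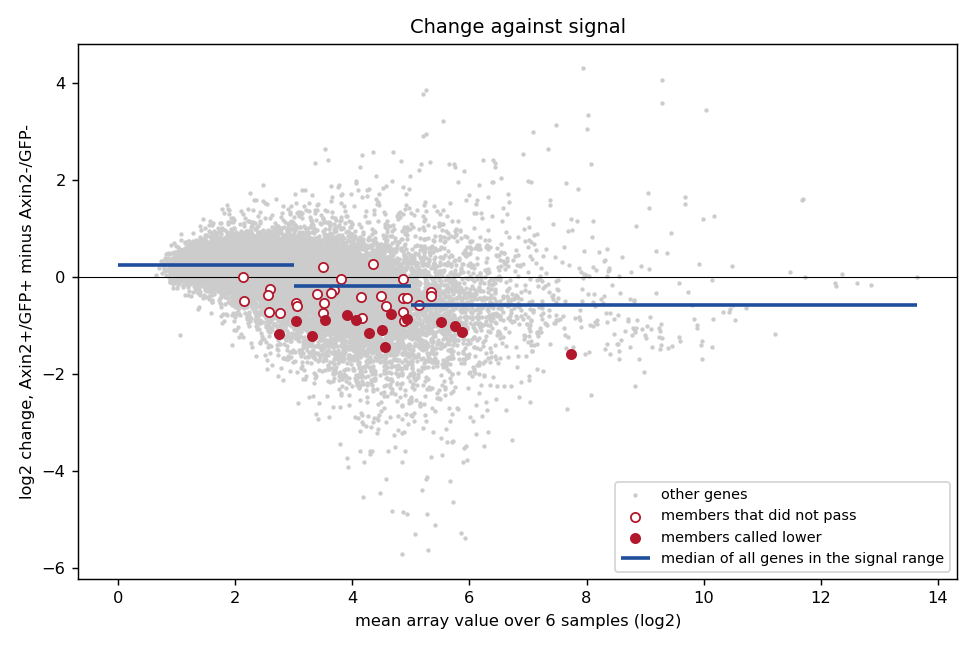
Log2 change, Axin2+/GFP+ minus Axin2-/GFP- (vertical axis), against the mean log2 array value over the 6 samples (horizontal axis), for the 43 replication genes (red; filled where lower) and all other genes tested (grey). The blue lines mark the medians of all genes, 0.25, -0.19 and -0.57, in the 3 signal ranges, and the brighter the genes the lower the line.

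The scale chosen for the arrays moved the count. Subtracting each array's median gave 17 members lower, beside 13.6% of all genes. Quantile normalization, which forces all arrays to one distribution, gave 4 members (Pola1, Pole, Pole2 and Pcna), beside 5.84%, and cyclic loess, which removes trends with brightness between arrays, gave 6 (Pola1, Prim2, Pole, Pole2, Pcna and Rrm1), beside 6.89%. Subtracting each array's median of the receptor genes gave 28 members lower, beside 20% of all genes. With quantile or loess scaling 34 of the 43 were below 0, and with the receptor genes as zero point all 43 were. None of these scalings gave a member that was higher at an adjusted p under 0.05.

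**Figure D4:**
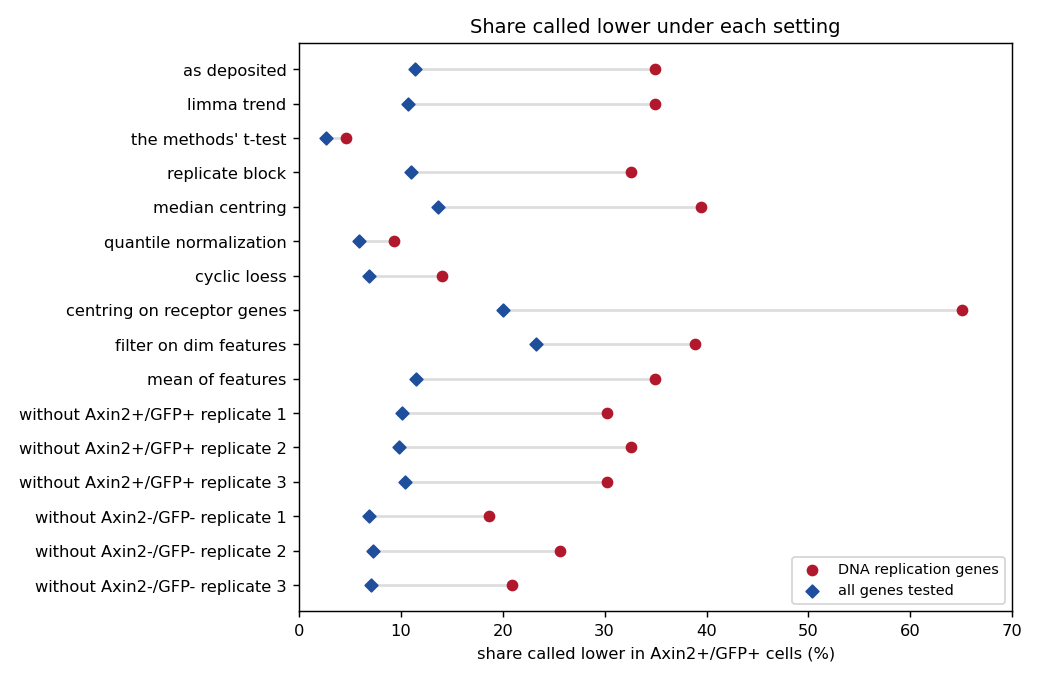
Share called lower in Axin2+/GFP+ cells at an adjusted p under 0.05 (horizontal axis, percent) among the DNA replication genes (red circles) and all genes tested (blue diamonds), in rows for the deposited scale and 15 alternatives. The members' share runs from 4.65% under the methods' t-test to 65.1% after centring on the receptor genes, and in each row it lies to the right of the share of all genes, least far under the methods' t-test and quantile normalization.

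Genes that act beside the 43 members were counted in the same fit. Of 26 other replication factors, 7 were lower and 0 higher in Axin2+/GFP+ cells by limma (15 and 0 unadjusted, 11 and 0 by the methods' t-test at p under 0.05), with a median log2 change of -0.54. Among the 7 were the origin complex subunits Orc2, Orc3 and Orc4, with log2 changes of -1.12, -1.17 and -1.12, beside the uncalled Orc1 and Orc6. Every Axin2+/GFP+ value of these 3 subunits lay below the receptor genes' 95th percentile in its sample, so the size of their changes rests on levels near background. Topbp1, which links helicase activation to the checkpoint, was 2.99-fold lower (log2 change -1.58, SE 0.22, limma adjusted p = 0.00240).

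Chromatin is rebuilt behind the fork, and 4 of 9 measured genes of chromatin assembly and DNA methylation at forks were lower and 0 higher by limma (7 and 1 unadjusted, 6 and 1 by the methods' t-test). They were the histone chaperones Asf1a and Nasp, the FACT subunit Supt16 and Uhrf1, which recruits the maintenance methyltransferase, with log2 changes of -2.28, -1.01, -1.30 and -1.28. Dnmt1, that methyltransferase, had -0.57 and did not pass (limma adjusted p = 0.0818). Asf1a lay below the receptor genes' 95th percentile in Axin2+/GFP+ replicates 2 and 3, at 2.58 and 2.93, so its change rests on a level near background. Of 13 other genes of nucleotide synthesis 4 were lower and 0 higher (4 and 0 unadjusted, 5 and 1 by the methods' t-test). These were Dck, the kinase that salvages deoxycytidine, at -2.32, Rrm2b, the reductase subunit used outside S phase, at -1.31, the mitochondrial one-carbon enzyme Shmt2 at -1.17 and Dut, which removes dUTP, at -1.03.

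Regulators of S phase were counted in the same way. Of 13 E2F and pocket protein genes 3 were lower and 0 higher (4 and 0 unadjusted, 3 and 0 by the methods' t-test): Rb1, the repressor of E2F targets, at a log2 change of -2.06, the E2F partner Tfdp2 at -1.61 and E2f1 at -0.67. Rb1 lay below the receptor genes' 95th percentile in Axin2+/GFP+ replicates 1 and 2, at 3.18 and 2.85, so its change rests on a level near background. Of 13 S phase kinase and checkpoint genes 3 were lower and 0 higher (6 and 0 unadjusted, 4 and 0 by the methods' t-test). They were Rad9a, Atrip and Atr of the replication checkpoint, at -0.92, -0.76 and -0.84. All Axin2+/GFP+ values of Atr lay below the receptor genes' 95th percentile in their sample. Those of Rad9a and Atrip did so in replicates 1 and 3, so all 3 changes rest on levels near background. Of 11 genes of the D-cyclins, their kinases and CDK inhibitors 4 were lower and 0 higher (4 and 0 unadjusted, 4 and 1 by the methods' t-test), with the G1 kinases Cdk4 and Cdk6 at -2.14 and -1.14, Ccnd2 at -1.93 and the inhibitor Cdkn1b at -1.34. The shares called lower were 26.9% of the other replication factors, 44.4% of chromatin assembly, 30.8% of nucleotide synthesis, 23.1% each of the E2F and the checkpoint lists and 36.4% of the D-cyclin list, beside 11.4% of all genes and 20.6% of genes with a mean log2 value of 3 to under 5. Differences among them were not tested.

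Mitosis genes, which act after replication, were read for comparison. Of 18 measured, 1 was lower, the spindle checkpoint gene Bub1b (log2 change -1.04, SE 0.21, limma adjusted p = 0.0128), and 0 were higher (3 and 0 unadjusted, 1 and 0 by the methods' t-test). The share called lower was 5.56%, beside 11.4% of all genes. It was 20.6% of genes with a mean log2 value of 3 to under 5 and 36.4% at 5 or more. The mitosis genes' median log2 change was -0.08, against -0.60 for the replication genes and 0.14 for all genes. In those 2 signal ranges the median of all genes was -0.19 and -0.57. The widely used proliferation marker Mki67 had 5.58, 5.80 and 6.86 in Axin2+/GFP+ samples and 6.53, 6.11 and 6.91 in Axin2-/GFP- samples, overlapping, with a log2 change of -0.44 (SE 0.35, limma adjusted p = 0.385). Top2a, the topoisomerase that untangles copied chromosomes, had -0.80 (SE 0.28, limma adjusted p = 0.0829). Whether the replication and the mitosis genes differ was not tested.

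Markers of blood cells moved with the same contrast. All 12 measured markers of the B lineage were lower in Axin2+/GFP+ cells, with a median log2 change of -4.40. Their median level was 2.88, 2.87 and 3.09 in Axin2+/GFP+ samples and 7.07, 7.22 and 7.28 in Axin2-/GFP- samples. Cd79b had a log2 change of -5.28, Ebf1 of -5.72, Blnk of -4.89 and the pre-B gene Vpreb3 of -5.39, and 6 of the 12 were at or under the 95th percentile of the receptor genes in Axin2+/GFP+ cells, against 0 in Axin2-/GFP- cells. Vpreb3 read 2.76, 3.59 and 3.34 in Axin2+/GFP+ samples and 8.44, 8.31 and 9.09 in Axin2-/GFP- samples. The part of B-lineage RNA in the lower replication genes was not tested.

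Granulocyte markers moved the other way. All 13 markers of neutrophils and granulocyte progenitors were higher in Axin2+/GFP+ cells, with a median log2 change of 2.64 and median levels of 7.89, 7.90 and 8.14 against 6.14, 5.52 and 4.84. They included Ltf at 4.30 and Fcnb at 3.86, and the genes of early granulocytes Mpo and Elane at 1.97 and 2.96. Mpo read 7.89, 7.90 and 8.14 in Axin2+/GFP+ samples and 6.14, 6.33 and 5.55 in Axin2-/GFP- samples. Their part in the replication genes' values was not tested either.

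Other cell types moved less. Of 9 erythroid markers 2 were lower, Tfrc at -1.85 and Alas2 at -1.68, and 1 was higher, Klf1 at 0.74 (2 lower and 4 higher unadjusted, 1 and 2 by the methods' t-test), with a median log2 change of 0.42 over the list. Of 6 T cell markers 0 passed in either direction by limma (0 lower and 0 higher unadjusted and by the methods' t-test), and 4 of the 6 were at or under the receptor level in each group. Macrophage and endothelial lists each had 1 lower gene, Cd68 at -1.49 of 7 and Pecam1 at -2.23 of 6, and no higher one (0 higher unadjusted in both lists, and by the methods' t-test 0 of the macrophage and 1 of the endothelial genes). Of 11 markers of suture mesenchyme and osteoblasts, 4 were higher and 0 lower (7 and 1 unadjusted, 5 and 1 by the methods' t-test), namely Col1a1 at 1.66, Col1a2 at 1.72, Col3a1 at 1.95 and Ibsp at 1.84. Col1a1 was present in both sorts, at 10.34, 10.83 and 10.37 against 8.998, 8.44 and 9.14, so collagen RNA was read in both sorts, with blood cell RNA beside it. The rest of that list did not pass. Prrx1 and Twist1 had log2 changes of 0.88 and 0.77 with no overlap (limma adjusted p = 0.0780 and 0.0915), and Postn was at 0.39. Axin2, Msx2 and Sp7, at 0.55, 0.29 and 0.26, were at or under the receptor level in each group. Alpl went the other way, with a log2 change of -0.52 (limma adjusted p = 0.0739) and no overlap.

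**Figure D5:**
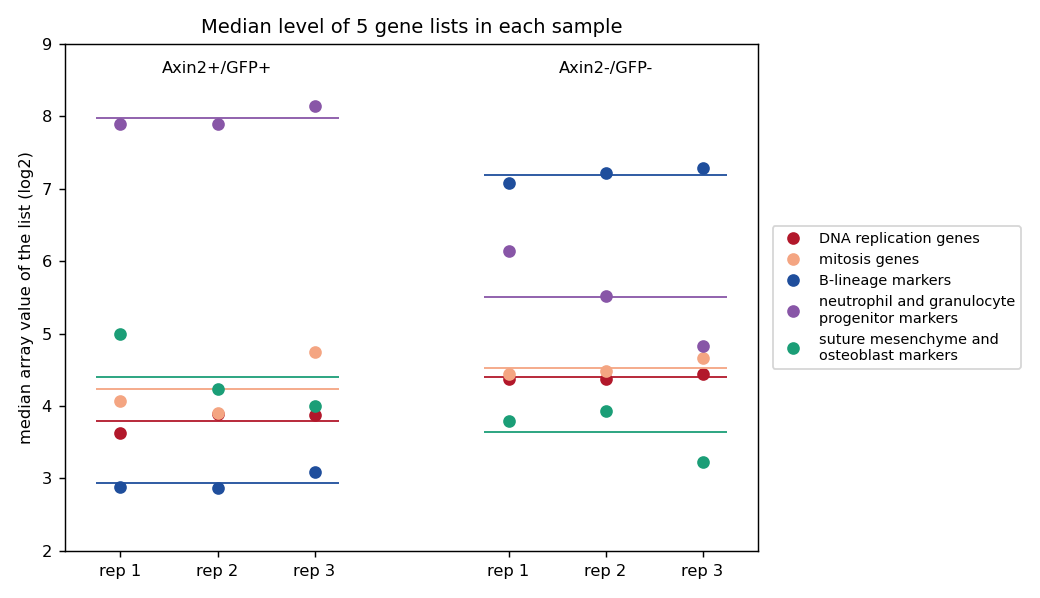
Median log2 array value (vertical axis) of the DNA replication genes and of 4 other gene lists in each sample (points), Axin2+/GFP+ replicates at the left and Axin2-/GFP- replicates at the right, with lines at the mean of each group's 3 points. The replication genes lie at 3.63 to 3.90 in Axin2+/GFP+ and 4.38 to 4.45 in Axin2-/GFP- samples, the B-lineage markers at 2.87 to 3.09 and 7.07 to 7.28, and points are to be compared within a list only.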

How the data were processed

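RNA of 3 Axin2+/GFP+ and 3 Axin2-/GFP- sorted samples was measured on 6 Affymetrix arrays. The authors deposited log2 values, 1 for each feature of an array. RMA and R 3.2.1 are named in the submitters' processing notes. Settings of background, normalization between arrays, probe grouping and annotation were not given in the sources used here, so whether the arrays of both sorts were normalized together is not known. A scale difference between arrays would shift the log2 changes, and RMA tends to narrow those of dim genes. Precision is limited by the number of arrays, and the p-values reflect only spread among these samples.

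Of 35557 features, 21789 name 1 gene, 1621 name several and 12147 are unnamed in the platform table. Of the 21789, 21698 were matched by gene identifier to RefSeq. Features with several names were left out. Each of 19938 genes was read by its brightest feature and tested by lmFit and eBayes of limma 3.58.1 (R 4.3.3; all 6 samples, no covariate), with Benjamini-Hochberg adjustment over all genes and a threshold of 0.05. The fit was first run on simulated data with the same spread in both groups, which the real groups did not have. That run bears on the code and not on the calls given here. The methods' two-sided t-test, limma with a trend, the replicate number as a block, 4 other scalings, a filter at the 95th percentile of the receptor genes (mean log2 above 2.83, passed by 36 of 43 members), the mean of a gene's features and leaving out each sample were the alternatives.

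The members, the gene lists and the comparisons were chosen with earlier results of these data known. The rule for genes given by sample took every called member, in each role the 2 members with the smallest p and the brightest, and up to 4 genes with the smallest p of each other list. It names 26 members. The other members, Mki67, Dnmt1, Axin2, Prrx1, Twist1, Postn, Msx2, Sp7 and Alpl were named after their values were seen. Promoter windows come from RefSeq (GRCm38.p6), which had none for 9 members. The smallest exact two-sided p for 3 samples against 3 is 0.1.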

Additional observations from a re-analysis of the deposited data

How the results depend on the processing

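No alternative gave a member that was higher at an adjusted p under 0.05, by limma or by the methods' t-test, and the number lower stayed within 1.5 times the 15 under limma with a trend, the replicate block, median centring, the filter on dim features and the mean of features. It came to 2 under the methods' t-test after adjustment and 4 after quantile normalization, beside 2.6% and 5.84% of all genes. Cyclic loess gave 6 and centring on receptor genes 28, beside 6.89% and 20% of all genes. Leaving out 1 sample gave 8 to 14 members, beside 6.9% to 10.4% of all genes. The lowest counts were 8 without Axin2-/GFP- replicate 1 and 9 without Axin2-/GFP- replicate 3. The cause was not tested. Of the calls on the deposited scale, 3 were shared with quantile normalization, 5 with cyclic loess and 15 with centring on receptor genes. The members' median log2 change was -0.71 with arrays centred on their median, -0.38 under quantile normalization, -0.42 under cyclic loess and -0.92 with the receptor genes as zero point, and ran from -0.69 to -0.49 when 1 sample was left out, the last without Axin2-/GFP- replicate 3. Those scalings moved the median of all genes by -0.11 (median centring), -0.094 (quantile normalization), -0.13 (cyclic loess) and -0.32 (receptor genes). The members' median minus that of all genes was -0.74 on the deposited scale, -0.43 under quantile normalization and -0.44 under cyclic loess. With the replicate number as a block 14 members were lower, and Rfc2 was lost. The labels do not say that the numbers pair samples, and deviations of same-numbered samples correlated at only 0.03, 0.01 and 0.05.

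No gene that passed changed sign in any alternative. Of genes that did not pass, quantile normalization and cyclic loess turned Mcm5 (0.49 and 0.46), Pold3 (0.10 and 0.072), Rfc5 (0.27 and 0.26), Lig1 (0.090 and 0.090), Rpa1 (0.23 and 0.18), Tyms (0.10 and 0.047) and Tk1 (0.17 and 0.18), and centring on receptor genes turned Gins4 (-0.055) and Ccne1 (-0.12). Leaving out 1 sample gave ranges that crossed 0 for Orc1 (-0.14 to 0.25), Cdc6 (-0.59 to 0.0056), Mcm5 (-0.15 to 0.10), Gins4 (-0.13 to 0.56), Rpa1 (-0.19 to 0.087) and Tk1 (-0.63 to 0.070). Members near the level of the receptor genes, such as Orc1, Pole2 and Fen1, have the least room to show a lower value.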
